A study of Mus musculus with 15 samples.

Results

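The integrin and laminin genes were taken as every gene whose symbol is that of an integrin alpha subunit (Itga followed by letters or digits), an integrin beta subunit (Itgb1 to Itgb8), or a laminin alpha, beta or gamma chain (Lama, Lamb or Lamc followed by a digit). They are 37 of the 44674 genes with counts, namely 18 integrin alpha, 8 integrin beta, 5 laminin alpha, 3 laminin beta and 3 laminin gamma genes. Bulk RNA-seq was compared over 15 libraries of mouse cells in 8 conditions. P0 Emcn+ and P0 Emcn- were tdTomato+ CD45- cells from whole bone marrow (WBM) of Tie2-CreERT2;Rosa26-tdTomato mice given tamoxifen, cultured for about 2 weeks in EGM-2 medium on collagen type I or gelatin and sorted for surface endomucin (Emcn), with 2 libraries each. P1, P2 and P3 Emcn- (2 libraries each) and P4 Emcn- (1 library, so no spread can be given) were later passages of the Emcn- marrow cells, which the labels call bone marrow endothelial cells (BMEC). Lung (2 libraries) were cells of lung cultures, Emcn- by the study's methods. MSC (2 libraries) were bone marrow mesenchymal stromal cells, marked with tdTomato by Osx-Cre and grown in another medium. The labels give the genotype of all libraries as WT, and the mice were 4 to 6 months old. The Tie2 promoter marks the cells that expressed it when tamoxifen was given, and Osx-Cre marks the osteolineage, so the EC and MSC groups differ in driver line as well as in medium.

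Integrins are cell surface receptors made of 1 alpha and 1 beta subunit, and the pair sets which matrix protein is bound. Laminins are trimers of an alpha, a beta and a gamma chain and form the sheet of the basement membrane on which endothelium sits. Vascular basement membrane is known for the Lama4 and Lama5 chains, while Lama2 is the chain of muscle, nerve and mesenchymal basement membranes.

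Library totals ran from 9914620 to 39718807 counts. P0 and lung replicates 1 were of 1 labelled batch and replicates 2 of another. The passaged replicates 1 with P4 formed another batch, and the passaged replicates 2 with both MSC libraries one more. The 12 endothelial markers summed to 13550 and 11380 counts per 1000000 (CPM) in P0 Emcn+ but to 356 and 80.7 in P0 Emcn-, 232 and 711 in lung, 45.0 and 372 in MSC and 70.9 to 104 in the 7 passaged libraries. Cdh5, the adhesion protein that defines endothelium, stood at 6222 and 5118 CPM in P0 Emcn+, 119.5 and 6.35 in P0 Emcn- and at most 2.33 in any passaged library, so this marker was near absent in passaged cells labelled as endothelial. Emcn itself was at 631 and 798 CPM in P0 Emcn+, 12.7 and 2.52 in P0 Emcn- and 32.6 and 124.6 in lung. Other endothelial genes were present in Emcn- cells, with Tek (Tie2) at 20.3 and 49.4 CPM and Flt1 at 70.4 and 8.88 in P0 Emcn-. The 10 fibroblast and stromal markers summed to 449 and 707 CPM in P0 Emcn+ and to 4301 to 23070 in the Emcn-, lung and MSC libraries. The 10 mural cell markers summed to 508 and 416 CPM in P0 Emcn+, 1440 and 758 in P0 Emcn-, 778 and 820 in lung, 1594 and 2287 in MSC and 367 to 481 in passaged cells, with 2 called higher and 5 lower in P0 Emcn+ than in P0 Emcn-. Most of the P0 Emcn+ sum came from the potassium channel genes Kcnj8 (206 and 102 CPM) and Abcc9 (268 and 196.5 CPM), while Pdgfrb, a defining mural and mesenchymal receptor, was at 16.2 and 9.82 CPM in P0 Emcn+ and 1077 and 537 in P0 Emcn-. The endothelial and stromal marker levels therefore moved with every comparison of Emcn+ with other cells below, and their part in those differences was not tested. Markers also moved in other comparisons. At P1 against P0 Emcn-, 4 stromal, 3 mural and 1 endothelial markers were called lower and none higher. In MSC against passaged cells, 7 endothelial, 5 stromal and 6 mural markers were called higher and 2 endothelial and 2 stromal lower. Against P0 Emcn-, MSC had 1 stromal and 3 mural markers higher and 3 endothelial and 2 stromal lower. The part of these shifts was not tested either. In bulk RNA, fewer cells of a type and less RNA per cell cannot be told apart.

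Of the 37 genes, 25 reached a mean of 10 CPM in at least 1 condition, 9 reached only 1 to 10 CPM (Itga2b, Itga4, Itgal, Itgam, Itgb6, Itgb7, Lama1, Lamb3 and Lamc3), and the leukocyte integrin genes Itgad, Itgae and Itgax stayed under 1 CPM and were not tested. MSC had the most genes at 10 CPM or more on average (21), and P0 Emcn- the fewest (15). By edgeR's quasi-likelihood F test over the 8 conditions (Benjamini-Hochberg adjusted p under 0.05), 31 of the 37 genes differed somewhere, where 63.5% of all 19401 tested genes did. The tested genes that did not pass were Lama4, Itgb4 and Lamb2. In the pairwise comparisons, a gene was called when its adjusted p was under 0.05 and its log2 fold change beyond 1.5 in either direction. Errors on fold changes are standard errors of the fit, and p-values measure the spread between these libraries. The labels do not say that replicates came from separate mice, while the study describes its bulk RNA-seq replicates as independent biological samples.

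**Figure D1:**
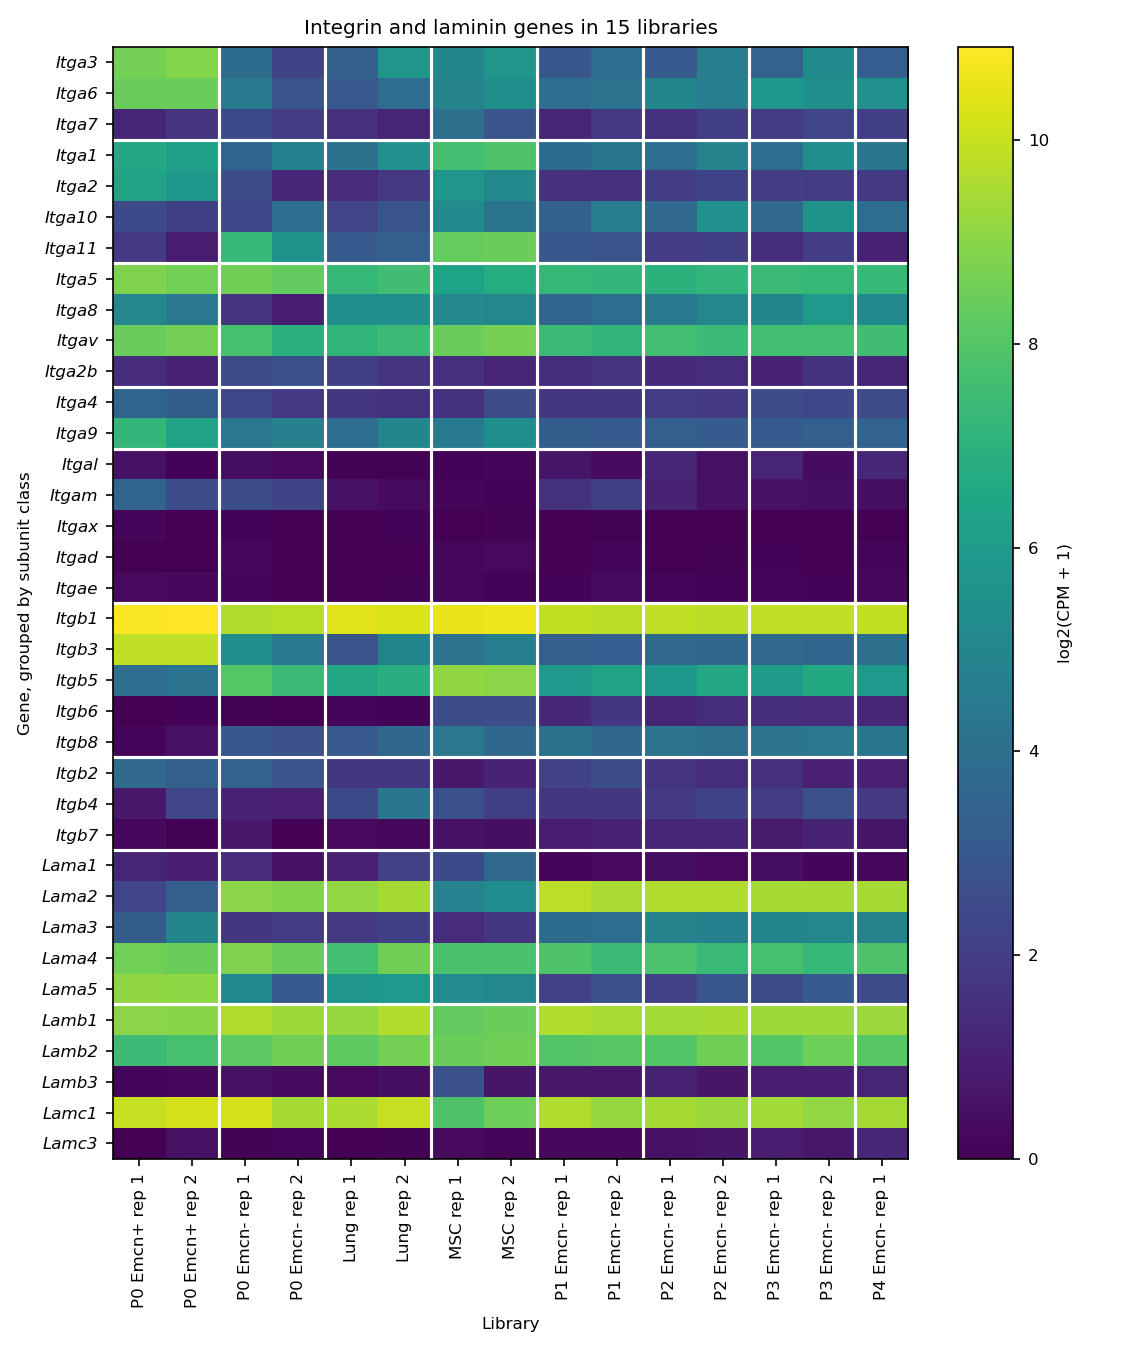
Heat map of 36 integrin and laminin genes (rows, grouped by ligand or subunit class) in the 15 libraries (columns), coloured by log2(CPM + 1). Itgb1 is bright in every column, Itga3, Itga6, Itgb3 and Lama5 are bright in P0 Emcn+, and Lama2 is dark in P0 Emcn+ and dim in MSC.

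P0 Emcn+ and P0 Emcn- cells came out of the same cultures, and their comparison asked how the populations told apart by endomucin differ. Emcn+ cells had more RNA for the laminin receptor subunits Itga3 and Itga6, for the beta subunit Itgb3 and for the laminin chain Lama5. Emcn- cells had more RNA for the laminin chain Lama2, for the collagen receptor subunit Itga11 and for Itgb5. In all, 9 of the 37 genes were called higher in Emcn+ (7.79% of tested genes were) and 5 were called lower (11.4%). By the adjusted p alone 18 passed, as did 34.1% of tested genes. The median log2 fold change of the 34 tested was 0.29, beside -0.06 over all genes.

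Among laminin alpha chains, Lama5 (ENSMUSG00000015647, chr2:180176373-180225859, minus strand, GRCm38), a chain of vascular and epithelial basement membranes, stood at 546 and 532 CPM in the Emcn+ replicates and at 36.1 and 7.87 in the Emcn- replicates (log2 fold change 4.61 ± 0.61, edgeR adjusted p = 0.000276). Lama2 (ENSMUSG00000019899, chr10:26980036-27619758, minus strand) ran the other way, at 3.8 and 8.89 CPM in Emcn+ and 520.2 and 464 in Emcn- (log2 fold change -6.25 ± 0.39, edgeR adjusted p = 3.2e-06). The groups did not overlap for either gene. An antisense gene, Gm48084, overlaps exons of Lama2, so reads there are uncertain. Lama3, best known from epithelial anchoring laminins, had 8.18 and 31.3 CPM in Emcn+ and 2.27 and 2.82 in Emcn- (log2 fold change 3.00 ± 0.51, edgeR adjusted p = 0.00125). Its Emcn+ replicates lay further apart than those of Lama5, and both lay above the Emcn- values. Lama4, the other vascular alpha chain, was at 388 and 352 CPM in Emcn+ and 442 and 340.2 in Emcn-, and these ranges overlapped. None of the 6 beta and gamma chain genes was called. Lamb1, the common beta chain, was at 512 and 501 CPM in Emcn+ and 786 and 639 in Emcn-. Lamb2, a beta chain of mature vessels and synapses, was at 176 and 212 and 289 and 368 CPM, a difference short of the fold limit (log2 fold change -0.73 ± 0.23, edgeR adjusted p = 0.0332). Lamc1, the gamma chain of most laminins, was at 983 and 1196 CPM in Emcn+ and 1176 and 687 in Emcn-, and these ranges overlapped.

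Of the 3 laminin-binding alpha subunits, Itga3 and Itga6 were called higher in Emcn+ and Itga7 was not called. Itga3 (ENSMUSG00000001507, chr11:95044474-95076801, minus strand) had 400.1 and 471 CPM in Emcn+ and 13.4 and 3.63 in Emcn- (log2 fold change 5.63 ± 1.06, edgeR adjusted p = 0.00233), the largest standard error among the called genes. Itga6, which pairs with Itgb1 or Itgb4, had 338 and 349 and 21.9 and 6.05 CPM (log2 fold change 4.60 ± 0.54, edgeR adjusted p = 0.000128). For both, every Emcn+ value lay far above every Emcn- value, and Emcn- replicate 1, the library with the higher endothelial marker sum of the pair, held the higher level. Itga7, best known from muscle, stayed between 1.2 and 4.43 CPM in these 4 libraries.

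**Figure D2:**
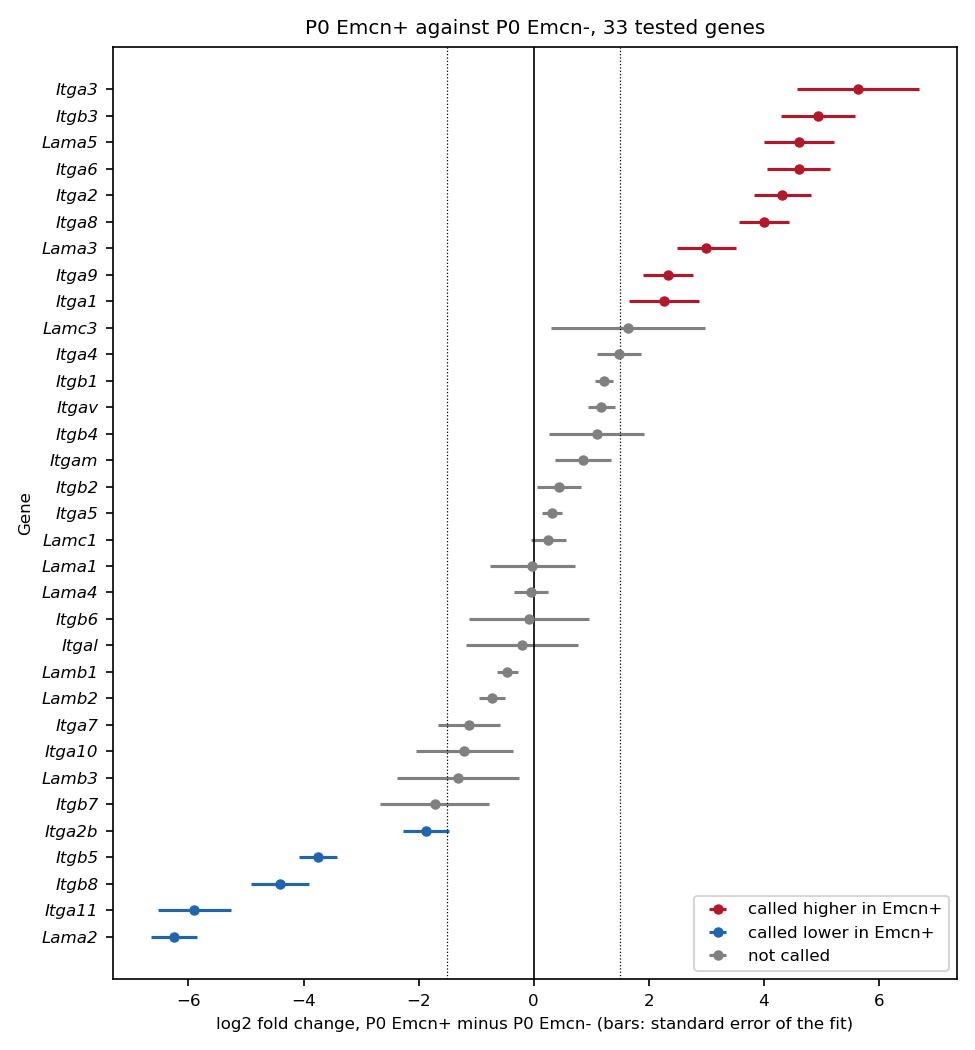
Log2 fold change of 33 tested genes, P0 Emcn+ minus P0 Emcn-, with the standard error of the edgeR fit as bars and dotted lines at 1.5 in each direction. Red points are the 9 genes called higher, led by Itga3 and Itgb3, and blue points the 5 called lower, led by Lama2 and Itga11.

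The 4 collagen-binding alpha subunits split. Itga2, the platelet and epithelial collagen receptor subunit, was at 82.5 and 56 CPM in Emcn+ and 5.19 and 1.41 in Emcn- (log2 fold change 4.32 ± 0.50, edgeR adjusted p = 0.000114). Itga1, a subunit for collagen IV, was at 95.3 and 75.7 and 10.5 and 26.8 CPM (log2 fold change 2.26 ± 0.61, edgeR adjusted p = 0.0163). Both genes were higher in each Emcn+ library than in any Emcn- library. The Itga1 call was lost without Emcn+ replicate 1 (log2 fold change 2.10, adjusted p = 0.062) and without Emcn- replicate 1 (1.73, adjusted p = 0.0946), and Itga1 shares exon sequence with Gm49395. Itga11 (ENSMUSG00000032243, chr9:62677826-62783982, plus strand), a receptor subunit for fibrillar collagen in mesenchymal cells, was lower, at 2.5 and 0.85 CPM in Emcn+ and 159.9 and 47.6 in Emcn- (log2 fold change -5.90 ± 0.64, edgeR adjusted p = 8.25e-05). The Emcn- replicates of Itga11 differed from each other by more than 3-fold. Itga10, the cartilage collagen receptor subunit, was at 4.44 and 3.25 and 4.18 and 14.6 CPM and was not called.

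Among subunits that bind the RGD peptide of fibronectin and related proteins, Itga8 was called higher in Emcn+, at 32.1 and 19.8 CPM against 2.12 and 0.908 (log2 fold change 4.00 ± 0.43, edgeR adjusted p = 8.24e-05). Itga8 pairs with Itgb1 and is known from smooth muscle and mesenchyme. An antisense gene, E030013I19Rik, overlaps its exons. Itga5, the fibronectin receptor subunit, was high in both, at 449.7 and 386 and 373 and 309.6 CPM, and was not called. Itgav, the partner of Itgb3, Itgb5, Itgb6 and Itgb8, was at 339 and 398 CPM in Emcn+ and 212 and 121 in Emcn-, a difference past the adjusted p only (log2 fold change 1.17 ± 0.24, edgeR adjusted p = 0.00359). Without Emcn- replicate 1 it also passed the fold limit (1.65). Itga9, which binds tenascin-C and osteopontin, was at 149.9 and 76.2 CPM in Emcn+ and 19.9 and 26.2 in Emcn- (log2 fold change 2.34 ± 0.43, edgeR adjusted p = 0.00214).

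The beta subunits that pair with Itgav changed places. Itgb3 (ENSMUSG00000020689, chr11:104608000-104670476, plus strand), the vitronectin receptor subunit of platelets, osteoclasts and angiogenic endothelium, was at 927 and 931 CPM in Emcn+ and 40.8 and 20.4 in Emcn- (log2 fold change 4.94 ± 0.63, edgeR adjusted p = 0.000226). Itgb5 (ENSMUSG00000022817, chr16:33829665-33949338, plus strand), the other vitronectin receptor subunit, was at 14.6 and 17 CPM in Emcn+ and 261 and 172 in Emcn- (log2 fold change -3.75 ± 0.33, edgeR adjusted p = 2.09e-05). The groups did not overlap for either gene, and the replicates of Itgb3 in Emcn+ were nearly equal. Itgb8, a subunit that activates latent TGF-beta, never exceeded 6.92 CPM in these libraries and was called lower in Emcn+ (0.127 and 0.464 against 6.92 and 5.55 CPM). Itga2b, which pairs with Itgb3 on megakaryocytes and platelets, was also called lower at a low level (1.58 and 1.08 against 4.71 and 5.35 CPM). The 7 megakaryocyte markers summed to at most 4.84 CPM in any library, reached in P0 Emcn- replicate 2. Of the 4 tested, Gp1bb was called lower in Emcn+ (log2 fold change -5.43). Pf4, Gp1ba and Gp5 had positive fold changes and were not called. The part of these cells in the Itga2b level was not tested. Itgb1, the shared beta subunit of the collagen, fibronectin and laminin receptors, was at 1832 and 1929 CPM in Emcn+ and 792 and 862 in Emcn-, short of the fold limit though past the adjusted p (log2 fold change 1.22 ± 0.16, edgeR adjusted p = 0.000265). The Emcn+ and Emcn- values did not overlap for any of the 14 called genes, so within each batch the direction could not differ. The log2 ratios of CPM within batches ran from 1.496 to 7.02 for genes called higher and from -7.10 to -1.57 for those called lower.

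The 250 bases before the start site are shown for genes at both ends of this comparison, Itga3 and Lama5 from those higher in Emcn+ and Itga11 and Itgb5 from those lower, so that the upstream sequences can be read beside the levels. They are RefSeq promoters of GRCm38.p6, where 23 of the 37 genes had an entry, and read 5′ to 3′ on the gene's strand. Capitals mark GGGCGG (a GC box, bound by Sp1) and CCGGAA (the ETS core) on either strand, and no marked motifs overlap.
Itga3 (chr11:95076715-95076964, minus strand): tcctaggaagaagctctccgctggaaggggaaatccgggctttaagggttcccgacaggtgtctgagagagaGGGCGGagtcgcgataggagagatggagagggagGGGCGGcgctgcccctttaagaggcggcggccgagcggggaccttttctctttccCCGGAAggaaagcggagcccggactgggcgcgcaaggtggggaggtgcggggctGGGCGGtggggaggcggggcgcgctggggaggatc
Lama5 (chr2:180225860-180226109, minus strand): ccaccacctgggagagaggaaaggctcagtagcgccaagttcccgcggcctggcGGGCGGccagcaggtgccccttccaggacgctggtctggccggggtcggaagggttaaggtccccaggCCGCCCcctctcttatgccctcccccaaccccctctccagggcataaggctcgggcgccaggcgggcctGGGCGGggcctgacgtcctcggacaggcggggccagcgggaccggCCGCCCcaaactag
Itga11 (chr9:62677605-62677854, plus strand): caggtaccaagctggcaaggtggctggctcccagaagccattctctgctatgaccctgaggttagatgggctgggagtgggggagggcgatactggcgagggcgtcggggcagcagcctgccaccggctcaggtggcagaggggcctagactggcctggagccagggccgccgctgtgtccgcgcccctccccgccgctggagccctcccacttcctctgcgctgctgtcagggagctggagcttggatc
Itgb5 (chr16:33829415-33829664, plus strand): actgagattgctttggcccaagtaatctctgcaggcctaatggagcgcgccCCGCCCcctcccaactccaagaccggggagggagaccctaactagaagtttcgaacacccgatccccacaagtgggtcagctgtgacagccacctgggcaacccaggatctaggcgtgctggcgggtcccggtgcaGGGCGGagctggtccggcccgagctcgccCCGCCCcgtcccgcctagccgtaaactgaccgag
GGGCGG occurred 3 times for Itga3, 4 times for Lama5, 3 times for Itgb5 and not for Itga11, so its presence did not separate genes by direction. It occurred at 8 of the 23 genes and at 32.7% of all 32851 promoters in windows of this length. Not every window lies at the annotated gene start of GENCODE. The nearest entry was 105002 bases from it for Itga9, 94295 for Lamb3 and 2816 for Lama2, but 0 to 87 bases for the 4 genes shown. CCGGAA occurred once, for Itga3, beside 12% of all promoters. TATAAA (12.4% of all promoters) occurred at none of the 23 and TGANTCA, the AP-1 site (6.75%), at 1, Itgax, which was not expressed at a tested level. A match is a description of letters only.

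Other genes of adhesion moved in both directions between P0 Emcn+ and P0 Emcn-. Of 27 integrin adaptors and kinases, 3 were higher in Emcn+ and 1 lower. They included Parvb, an actin linker of the integrin-linked kinase complex (log2 fold change 2.56 ± 0.45, edgeR adjusted p = 0.00155), and the adaptor paxillin, Pxn (log2 fold change 2.37 ± 0.18, edgeR adjusted p = 9.58e-06), while Tln2, a talin, was lower (log2 fold change -3.20 ± 0.20, edgeR adjusted p = 3.13e-06). Of 17 other basement membrane genes, 4 were higher, among them the netrin Ntn4 (4.27) and nidogen 2, Nid2 (2.48), and 5 lower, among them Smoc2 (-5.79) and Smoc1 (-5.16), all as log2 fold changes. Bcam, which binds the Lama5 chain, was the 1 called gene of 8 non-integrin laminin receptors (log2 fold change 3.15 ± 0.56, edgeR adjusted p = 0.00161). Of 25 other integrin ligands, 5 were higher and 6 lower. Named by the largest changes among genes whose higher group held 10 CPM or more in both libraries, they included Icam2, a ligand of leukocyte integrins (6.03), and tenascin-C, Tnc (5.46), on the higher side and periostin, Postn (-6.75), and Edil3 (-4.55) on the lower side. The median log2 fold changes of these 4 lists, in the order given, were 0.31, -0.13, -0.28 and 0.23, beside -0.06 over all genes.

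Levels of different genes were compared per kilobase of exon. By this measure the laminin alpha chain of P0 Emcn+ cells was mainly Lama5, with 59.1% and 58.8% of the summed alpha chain CPM per kb in replicates 1 and 2, and Lama4, with 39.6% and 36.7%. In P0 Emcn- cells Lama5 held 4.4% and 1.2%, Lama4 50.8% and 49.0%, and Lama2 44.2% and 49.3%. Lama2 held 61.6% and 53.8% in lung and 65.8% to 73.9% in the 7 passaged libraries. In MSC, Lama4 held 76.2% and 73.2%, Lama5 13.9% and 11.5%, and Lama2 only 7.25% and 9.28%. These shares depend on the length used: with the longest transcript in place of all exons, Lama4 (55.0%) exceeded Lama5 (42.6%) in P0 Emcn+. The order of Lama2 over Lama4 in lung and passaged cells and of Lama4 over Lama5 and Lama2 in MSC held under both lengths.

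Lamb1 had the most CPM per kb of the beta chains in 13 libraries and Lamb2 in both MSC libraries, under either length. Lamc1 led the gamma chains in all 15. Itgb1 led the integrin beta subunits in all 15 libraries, at 194 to 473 CPM per kb. Among alpha subunits, Itga5 led in 12 libraries, Itga3 in replicate 2 of P0 Emcn+ and Itga11 in both MSC libraries.

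**Figure D3:**
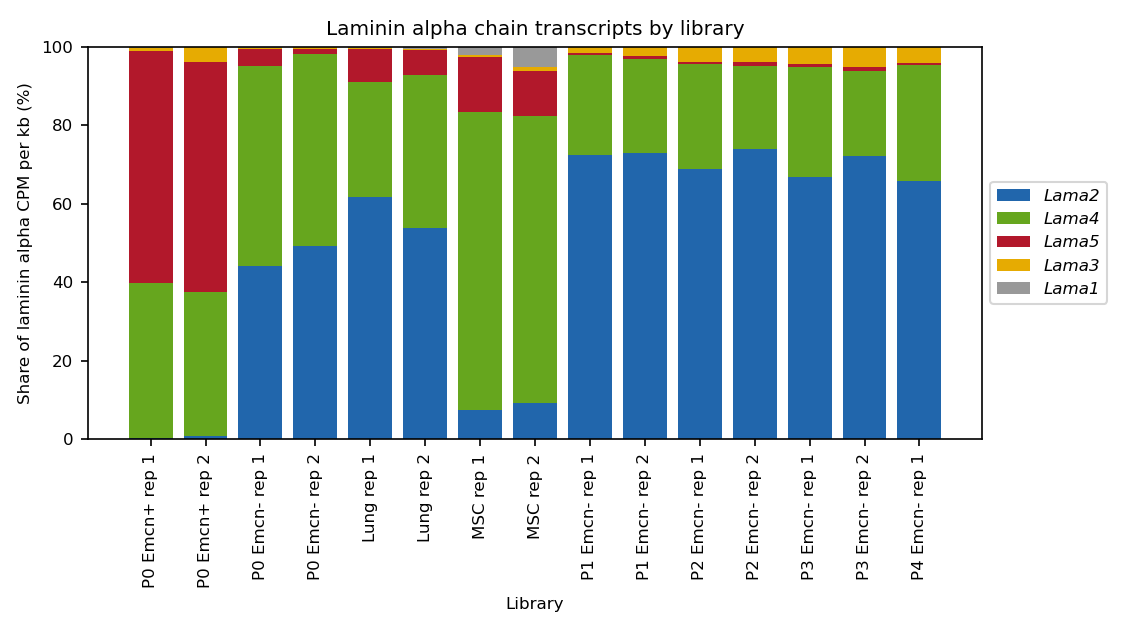
Share of each laminin alpha chain in the summed laminin alpha CPM per kilobase of exon (y axis, percent) for the 15 libraries. Lama5 (red) is the largest part of both P0 Emcn+ bars, Lama2 (blue) most of the lung and passaged bars, and Lama4 (green) most of the MSC bars.

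Lung cells were compared with P0 Emcn- marrow cells to ask how cells from another organ, also described as Emcn-, differ. Emcn RNA was higher in both lung libraries (32.6 and 124.6 CPM) than in P0 Emcn- (12.7 and 2.52), and its part in the differences was not tested. Most integrin and laminin genes were not called. Of the 37, Itga8 and Itgb4 were called higher in lung (2.13% of tested genes were) and Itga11, Itgam and Itgb2 lower (1.7%). By the adjusted p alone 7 passed (5.37%). The median log2 fold change of the 34 tested genes was -0.16, beside 0 over all genes. Itga8 was at 42.9 and 39.5 CPM in the lung replicates, above both P0 Emcn- values (log2 fold change 4.70 ± 0.45, edgeR adjusted p = 0.000833). Itga11 was at 7.79 and 8.9 CPM, below both P0 Emcn- values of 159.9 and 47.6 (log2 fold change -3.58 ± 0.56, edgeR adjusted p = 0.00672). The Itga11 call was lost without lung replicate 1 (adjusted p = 0.0564) and in a fit of these 4 libraries alone (0.0847). Itgb4, which pairs with Itga6 in epithelial hemidesmosomes and is also found on endothelium, was at 4.47 and 18.2 CPM in lung and 1.11 and 1.01 in P0 Emcn- (log2 fold change 3.45 ± 0.86, edgeR adjusted p = 0.0467). The call did not hold without lung replicate 2 (log2 fold change 2.15, adjusted p = 0.202), without either P0 Emcn- replicate and in the fit of these 4 libraries alone.

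Lung replicate 2 stood above replicate 1 for several of these genes. Itga3 was at 9.11 and 53.3 CPM in lung replicates 1 and 2, Itgb3 at 6.18 and 29.6 and Itga1 at 16.4 and 45.3. The endothelial markers summed to 232 and 711 CPM and the 9 epithelial markers to 2.35 and 12.7 in the same order, and their part in the Itga3, Itgb3 and Itgb4 levels was not tested. Other abundant genes were not called. Lama2 was at 571 and 702 CPM in lung and Lama4 at 201 and 377. Itgb1 was at 1337 and 1254 CPM, higher than in P0 Emcn- by the adjusted p alone (log2 fold change 0.72 ± 0.16, edgeR adjusted p = 0.0293), and Itga5 at 154 and 188, lower by the adjusted p alone (log2 fold change -0.93 ± 0.17, edgeR adjusted p = 0.0143). Lama5 was at 54.4 and 57.7 CPM and was not called. The lung and P0 Emcn- values of the called genes did not overlap, so within the shared batches the direction could not differ. The log2 ratios there were 2.01 to 5.44 for the genes called higher and -4.36 to -1.41 for those called lower.

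Among the related genes, lung had Ptk2b, a kinase of the focal adhesion kinase family, called higher as the 1 of 27 adaptors and kinases (log2 fold change 1.70 ± 0.41, edgeR adjusted p = 0.0423). Of the basement membrane genes 4 were higher and 1 lower, among them Col4a5 (2.75) and Col18a1 (-2.57). Bcam was again called (log2 fold change 3.21 ± 0.56, edgeR adjusted p = 0.0103). Of the other ligands 3 were higher and 2 lower, among them Vwf (5.07) and nephronectin, Npnt, the ligand of the Itga8 receptor (4.68). The lung libraries lay far apart for Vwf, at 21.9 CPM in the lower and 111 on average.

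P1 Emcn- cells were compared with P0 Emcn- cells to follow the first passage. No batch holds libraries of both, so batch and passage cannot be told apart here. Itga8 and Lama3 were higher at P1, and Itga11, Itgb5 and Lama5 lower. With the low-level Itgb6 (at most 2.3 CPM), 3 genes were called higher (5.77% of tested genes were) and 3 lower (3.07%), and 8 passed the adjusted p alone (17.5%). The median log2 fold change was 0.0045, beside 0.019 over all genes. Itga8 was at 10.9 and 14.5 CPM at P1 against 2.12 and 0.908 at P0 (log2 fold change 3.08 ± 0.42, edgeR adjusted p = 0.00128). Lama3 was at 13.6 and 14.2 CPM against 2.27 and 2.82 (log2 fold change 2.63 ± 0.50, edgeR adjusted p = 0.00762). Itga11 was at 6.84 and 5.85 CPM against 159.9 and 47.6 (log2 fold change -3.88 ± 0.57, edgeR adjusted p = 0.00191). For these 3 genes the P1 libraries lay close together and outside the P0 range. Itgb5 was at 56.5 and 77.3 CPM against 261 and 172 (log2 fold change -1.54 ± 0.30, edgeR adjusted p = 0.00799), and Lama5 at 3.39 and 5.45 against 36.1 and 7.87 (log2 fold change -2.20 ± 0.57, edgeR adjusted p = 0.0272).

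Several of these calls were lost when P0 Emcn- replicate 1 was left out, which leaves 1 library in that group. Without that replicate the log2 fold change was -0.69 for Lama5, -1.22 for Itgb5 and 2.45 for Lama3. The Lama5 call was also lost without either P1 replicate (adjusted p = 0.173 and 0.0829) and in the fit of these libraries alone, and that of Itgb5 without P1 replicate 1 (adjusted p = 0.0804) and with ashr shrinkage (-1.37). The most abundant genes were not called. Lama2 was at 915 and 735 CPM at P1 (log2 fold change 0.91 ± 0.31, edgeR adjusted p = 0.0718), Itga5 at 152 and 148 (log2 fold change -1.03 ± 0.17, edgeR adjusted p = 0.00417) and Itgb1 at 970.4 and 891. Of the related lists, the adaptors had 1 gene called higher (Lims2, 2.36), the basement membrane genes 2 higher and 1 lower (Smoc2, 1.65, and Col15a1, -2.97), the laminin receptors 1 lower (Rpsa, -1.95), and the other ligands 1 higher and 3 lower (Edil3, 2.24, Ccn1, -2.46, and Ccn2, -2.22). Rpsa also encodes a ribosomal protein and has processed pseudogenes, so its counts are uncertain.

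**Figure D4:**
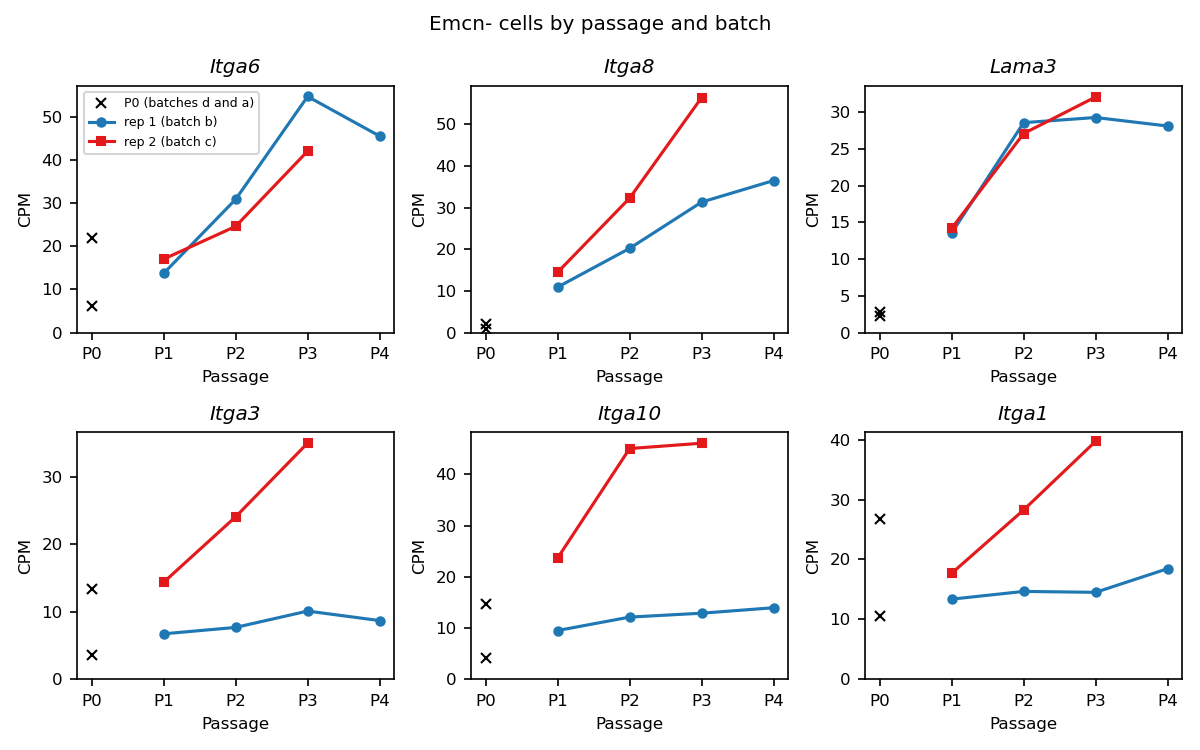
CPM (y axis) of 6 genes in Emcn- cells by passage, with P0 libraries as crosses, replicate 1 (batch b, P1 to P4) in blue and replicate 2 (batch c, P1 to P3) in red. Itga6, Itga8 and Lama3 are higher at P3 than at P1 in both batches, while Itga3, Itga10 and Itga1 lie higher in batch c at every passage.

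From P1 to P3 the cells stayed in the same pair of batches. No integrin or laminin gene was called by edgeR, where 0.222% of all tested genes were, and the smallest adjusted p was 0.0809, for Itga8. The median log2 fold change was 0.39, beside -0.012 over all genes. At an unadjusted p under 0.05 edgeR had 7 of the 37 genes, with Itga4, Itga6, Itga8 and Lama3 higher and Itga11, Itgam and Itgb2 lower at P3. DESeq2's Wald test called 4 of these, Itga6 and Itga8 higher and Itgam and Itgb2 lower. With the replicate block, edgeR called Itga8 (log2 fold change 1.77, adjusted p = 0.0226) and Itgam (-2.60, adjusted p = 0.0495).

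From P1 to P4 the CPM of Itga8 were 10.9 and 14.5, then 20.2 and 32.3, then 31.3 and 56.4, and 36.5 in the P4 library (P3 against P1, log2 fold change 1.82 ± 0.38, edgeR adjusted p = 0.0809). It was higher at each passage than at the one before in both batches. Itga6 was at 13.7 and 17, 30.9 and 24.6, 54.7 and 42.1 and 45.6 CPM in the same order (log2 fold change 1.70 ± 0.48, edgeR adjusted p = 0.166). The P4 library lay between the P3 values, below the P3 library of its own batch (54.7 CPM). Lama3 was at 13.6 and 14.2, 28.6 and 27.1, 29.3 and 32.1 and 28.1 CPM (log2 fold change 1.18 ± 0.46, edgeR adjusted p = 0.296), with most of the step between P1 and P2. Within the batches of replicates 1 and 2, the log2 ratio of P3 to P1 was 1.52 and 1.96 for Itga8, 1.99 and 1.30 for Itga6, and 1.11 and 1.18 for Lama3.

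Itga3, Itga10 and Itga1 differed between the batches at each passage. Over P1, P2 and P3 the pairs of Itga3 values were 6.72 and 14.4, 7.67 and 24.1 and 10.1 and 35 CPM, each time higher in replicate 2. Itga10 was at 9.49 and 23.7, 12.1 and 45 and 12.9 and 46.1 CPM, again higher in replicate 2, and shares exons with Gm42957. Itga1 was at 13.4 and 17.7, 14.7 and 28.3 and 14.5 and 39.8 CPM. Replicate 2 was the higher library of all 9 pairs. The log2 ratio of P3 to P1 in replicates 1 and 2 was 0.59 and 1.28 for Itga3, 0.44 and 0.96 for Itga10, and 0.12 and 1.17 for Itga1, and none of the 3 was called. The most abundant genes held narrow ranges over the 7 passaged libraries, with Itgb1 at 884 to 970.4 CPM, Lama2 at 688 to 915, Lamb1 at 612 to 772, Lamc1 at 567 to 772, Itgav at 146 to 200.3 and Itga5 at 128 to 164. Itgb8, low at P0, stayed at 11.3 to 19.1 CPM. Of the related lists, 1 gene, Ccn2, a matricellular integrin ligand, was called between P1 and P3 (log2 fold change 3.09 ± 0.42, edgeR adjusted p = 0.0295).

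The leukocyte integrin genes Itgb2 and Itgam ran with markers of macrophages, which were part of the P0 cultures before sorting for CD45- cells. Itgb2, the beta subunit of leukocyte integrins, was at 12.7 and 9.2 CPM in P0 Emcn+, 10.2 and 6.25 in P0 Emcn-, 2.35 and 2.35 in lung, 0.618 and 1.06 in MSC, 3.45 and 5.09 at P1 and 1.75 and 0.999 at P3. Its partner Itgam was at 10.5 and 5.1, 5.24 and 3.53, 0.387 and 0.231, 0.14 and 0.0913, 1.99 and 3.08 and 0.452 and 0.37 CPM in the same order. The 12 macrophage and leukocyte markers summed to 740 and 688 CPM in P0 Emcn+, 228 and 268 in P0 Emcn-, 28.0 and 24.3 in lung, 26.0 and 40.3 in MSC, 78.8 and 250.2 at P1 and 22.8 and 15.9 at P3. Itgal, another leukocyte alpha subunit, did not fall with these markers from P1 to P3. It was at 0.595 and 1.21 CPM in replicate 1 and at 0.251 and 0.296 in replicate 2 (7 and 8 counts). Both Itgb2 and Itgam were highest in the P0 libraries. Neither was called between P0 Emcn+ and P0 Emcn-, where 4 of the 12 markers were called higher in Emcn+ and none lower. P1 replicate 2 had a marker sum of 250.2 CPM, within the P0 Emcn- range, and Itgb2 and Itgam below every P0 value. Much of the P1 sum was Lyz2, at a mean of 116 CPM. Of the 12 markers, all but Coro1a had a lower mean at P1 than at P0 Emcn-, and none was called. The part of macrophages in the calls for Itgb2 and Itgam in lung and MSC was not tested.

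MSC were compared with P0 Emcn- cells and with the mean of passages P1 to P3, as the stromal reference of the study. The passaged libraries entered the fit as independent, though residuals within a batch correlated at 0.509 to 0.676. The p-values against passaged cells may therefore be too small. Libraries of MSC and P0 Emcn- shared no batch, so batch, medium and driver line cannot be told apart from cell type there. Against passaged cells, medium and driver line cannot be told apart from cell type either, and only the passaged replicates 2 shared the MSC batch. MSC had more RNA for the collagen receptor subunits Itga1, Itga2 and Itga11 than P0 Emcn- or passaged cells, and less for Lama2. Against P0 Emcn-, 8 of the 37 genes were called higher (11.3% of tested genes were) and 7 lower (7.45%), and 21 passed the adjusted p alone (35.3%). Against passaged cells, 10 were higher (8.42%) and 6 lower (5.81%), and again 21 passed the adjusted p alone (32%). The median log2 fold changes were 0.87 and 0.25, beside 0.0053 and 0.0077 over all genes.

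Itga11 was at 322 and 352 CPM in the MSC replicates, against 1.16 to 6.84 over the passaged libraries (log2 fold change 6.49 ± 0.40, edgeR adjusted p = 8.17e-06). Against P0 Emcn- the difference was smaller (log2 fold change 1.78 ± 0.52, edgeR adjusted p = 0.0232) and the call did not hold when P0 Emcn- replicate 2 or either MSC replicate was left out (adjusted p = 0.0723, 0.065 and 0.0711), with ashr (1.48) and in the fit of these libraries alone. Itga1 was at 198 and 234 CPM (against P0 Emcn-, log2 fold change 3.65 ± 0.64, edgeR adjusted p = 0.00219). Against passaged cells, at 13.4 to 39.8 CPM, it was also higher (log2 fold change 3.29 ± 0.43, edgeR adjusted p = 0.000416). Itga2 was at 50.9 and 35.7 CPM (against P0 Emcn-, log2 fold change 3.71 ± 0.48, edgeR adjusted p = 0.000429), where passaged cells had 1.9 to 3.58 (log2 fold change 3.96 ± 0.32, edgeR adjusted p = 3.54e-05). Itga1 and Itga2 were thus high in MSC and in P0 Emcn+, while Itga11 was high in MSC and P0 Emcn- and low in P0 Emcn+.

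**Figure D5:**
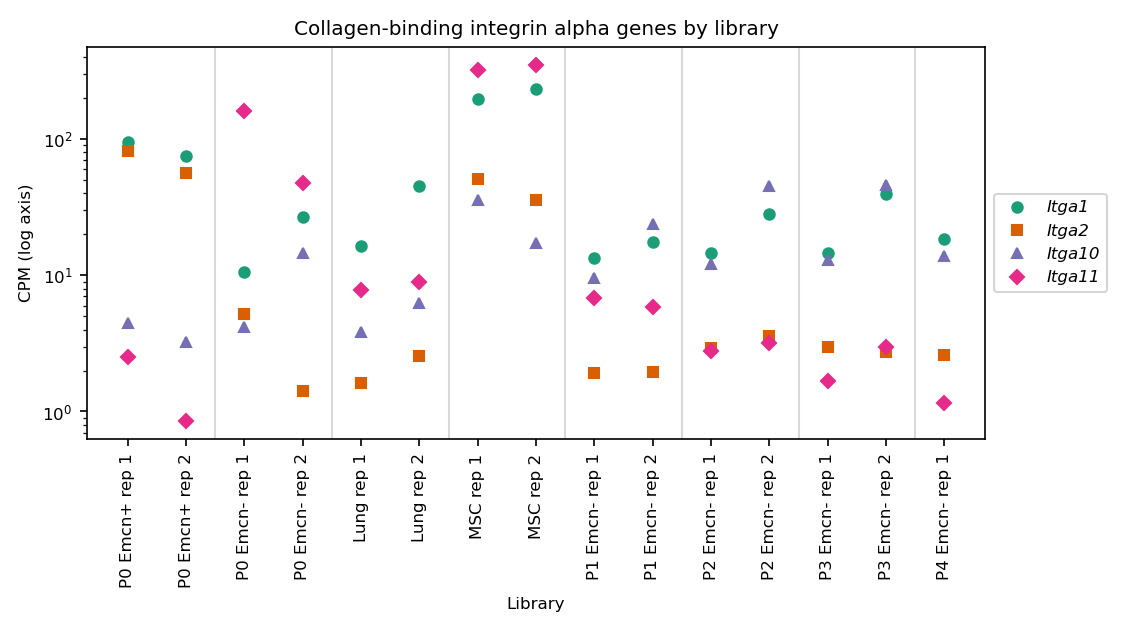
CPM (y axis, log scale) of the collagen-binding integrin subunits Itga1, Itga2, Itga10 and Itga11 in each of the 15 libraries. Itga11 is highest in MSC and lowest in P0 Emcn+ and late passages, while Itga2 is highest in P0 Emcn+ and MSC and under 6 CPM elsewhere.

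Among laminin chains, Lama2 was at 27.8 and 38 CPM in MSC, below every lung and Emcn- library (against P0 Emcn-, log2 fold change -3.81 ± 0.35, edgeR adjusted p = 5.54e-05; against passaged cells, log2 fold change -4.64 ± 0.34, edgeR adjusted p = 2.16e-05). Lamc1 was at 229.5 and 362 CPM, below all other 13 libraries. Against P0 Emcn- it was called (log2 fold change -1.57 ± 0.31, edgeR adjusted p = 0.0037), but not with the replicate block (-1.40), with ashr (-1.38), in the fit of these libraries alone (adjusted p = 0.0561), without P0 Emcn- replicate 1 (-1.14) or without MSC replicate 1 (-1.30). Lama5 was at 37.3 and 32.9 CPM in MSC, above the 3.39 to 7.7 of passaged cells (log2 fold change 2.67 ± 0.40, edgeR adjusted p = 0.000897). Lama3 was at 1.6 and 2.31 CPM, below the 13.6 to 32.1 of passaged cells (log2 fold change -3.64 ± 0.47, edgeR adjusted p = 0.00042). Lamb1 was at 309 and 356 CPM, lower than in passaged cells by the adjusted p alone (log2 fold change -1.14 ± 0.16, edgeR adjusted p = 0.000603).

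Among the other integrin subunits, Itgb5 was at 544 and 515 CPM in MSC, above every other library (against passaged cells, log2 fold change 2.75 ± 0.22, edgeR adjusted p = 2.8e-05). Against P0 Emcn- it passed the adjusted p only (log2 fold change 1.38 ± 0.30, edgeR adjusted p = 0.00587). Itga5 was at 80.4 and 108 CPM, the lowest 2 of the 15 values (against P0 Emcn-, log2 fold change -1.77 ± 0.18, edgeR adjusted p = 9.61e-05). Itga8 was at 34.1 and 33.4 CPM, above P0 Emcn- (log2 fold change 4.43 ± 0.44, edgeR adjusted p = 8.81e-05) and within the 10.9 to 56.4 of passaged cells. Itga7 was at 15.4 and 6.39 CPM, above P0 Emcn- (log2 fold change 1.65 ± 0.53, edgeR adjusted p = 0.0352) and passaged cells (log2 fold change 2.03 ± 0.39, edgeR adjusted p = 0.00323). Against P0 Emcn- the Itga7 call did not hold without MSC replicate 1 (0.84), without either P0 Emcn- replicate (2.00 and 1.38), with the replicate block (1.33), with ashr (1.23) or in the fit of these libraries alone, and against passaged cells without MSC replicate 1 (1.22). Itga9 was at 21.6 and 42.1 CPM, above the 7.96 to 10.2 of passaged cells (log2 fold change 1.82 ± 0.31, edgeR adjusted p = 0.00194), and fell under the fold limit without MSC replicate 2 (1.29). Itgb1 was at 1510 and 1605 CPM and Itgav at 352 and 409, both higher than in passaged cells by the adjusted p alone. At levels under 13 CPM, Itgb6, Lama1 and Lamb3 were called higher in MSC in both comparisons and Itgam and Itgb2 lower, with Itga2b also lower against P0 Emcn- and Itgal against passaged cells.

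Of the related genes, MSC had 3 adaptors and kinases higher and 2 lower than P0 Emcn- (Ptk2b, 2.95, and the tensin Tns3, 2.36), and 2 higher and 4 lower than passaged cells (Tln2, 2.27, vinculin, Vcl, 1.73, Lims2, -2.65, and Tns1, -1.64). Basement membrane genes were 4 higher and 4 lower than in P0 Emcn-, with Smoc1 (3.03) and Ntn4 (2.25) against Col18a1 (-3.62) and Col4a1 (-2.67). Against passaged cells 1 was higher and 5 lower, with Smoc1 (3.97) against Col18a1 (-2.20) and nidogen 1, Nid1 (-1.95). The non-integrin laminin receptors were 3 higher and 1 lower than in P0 Emcn- (Sgcd, 2.83, Bcam, 2.21, and Rpsa, -2.67) and 2 higher than in passaged cells (Sgcd, 1.52). Other integrin ligands were 5 higher than in P0 Emcn- (thrombospondin 1, Thbs1, 5.23, and Npnt, 4.79) and 11 higher than in passaged cells (bone sialoprotein, Ibsp, 6.71, and Thbs1, 5.50). All values in these lists are log2 fold changes.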

How the data were processed

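Per the labels and methods, total RNA was extracted with Trizol, and libraries were made with the KAPA RNA HyperPrep kit. The authors trimmed the reads and mapped them to GRCm38 with STAR in an nf-core pipeline, and estimated abundance with Salmon on an Ensembl annotation. They deposited whole-number counts per gene, not normalized, and how the estimates were made whole is not described in the sources used here. CPM was computed here as counts per 1000000 of the library total, and levels between genes as CPM per kb of merged exons of GENCODE M21. Exons of 12 of the 37 genes overlap another gene.

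Counts were tested in R 4.3.3 with edgeR 4.0.16 (TMM factors, filterByExpr with minimum count 10 and minimum total 15, quasi-likelihood test, 1 coefficient per condition, all 15 libraries), with Benjamini-Hochberg adjustment over 19401 genes. The fit had 7 residual degrees of freedom. Alternatives were DESeq2 1.42.0, ashr 2.2.63 shrinkage, RLE factors, no filter, a filter of 50 counts in 2 libraries, a replicate block, only the compared groups, no fold limit and leaving out each library. In a group left with 1 library, that library is assumed to vary like the other groups. The integrin and laminin genes and the lists of related and marker genes were chosen with earlier results of these data known. Genes called in a comparison with a mean of at least 10 CPM in a compared group are given in every library. From each list of related genes at most the 2 called genes per direction with the largest change are named. They are named only if no library of the higher group is under 10 CPM. Other members and marker genes are named for context after their values were seen. The values of 1 gene are not reported here, though it is in the counts.

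Replicates differed by more than counting noise in all 7 replicated conditions (chi-square per degree of freedom 42.48 to 140.5). Libraries with the same number carry the same batch label, either among P0 and lung or among P1 to P3. Over 16223 genes, correlations between their residuals about the condition mean were 0.15 to 0.316 for P0 and lung, and 0.509 to 0.676 for the passaged libraries. The replicate block adds a term for each of these batch pairs. Tested on simulated data with 200 changed genes, edgeR recovered 168 for P0 Emcn+ against P0 Emcn- (17959 genes) and 170 for P3 against P1 (17828 genes). The simulated counts had the same dispersion for every gene and no batch effect, so they do not measure recovery in the real libraries. Promoter sequences came from RefSeq (GRCm38.p6).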

Additional observations from a re-analysis of the deposited data

How the results depend on the processing

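Counts of called integrin and laminin genes stayed within 1.5 times the main count under all alternatives tried for P0 Emcn+ against P0 Emcn- and for MSC against passaged cells. For lung, only the groups compared gave 1 higher and 0 lower. For P1 against P0 Emcn-, no filter and DESeq2 each gave 5 lower. For P3 against P1, DESeq2 gave 2 higher and 2 lower, ashr, no filter and the replicate block each gave 1 higher and 1 lower, and only the groups compared gave 1 higher. For MSC against P0 Emcn-, no fold limit gave 13 higher, only the groups compared gave 5 higher and 4 lower, and ashr gave 4 lower. Leaving out single libraries gave 1 to 2 higher and 1 to 3 lower for lung (1 higher without P0 Emcn- replicate 2 or lung replicate 2, 1 lower without lung replicate 1), 1 to 5 lower for P1 (1 without replicate 1 of P0 Emcn- or of P1, 5 without P0 Emcn- replicate 2), and 4 to 11 higher for MSC against P0 Emcn- (4 without P0 Emcn- replicate 2, 5 without MSC replicate 1, 11 without P0 Emcn- replicate 1).

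With no division by length, the Lama5 share in P0 Emcn+ was 57.6%, Lama2 and Lama4 held 54.4% and 42.9% in P0 Emcn-, Lama2 and Lama5 65.1% and 5.80% in lung, Lama2 11.0% in MSC, and Lama2 and Lama4 75.8% and 20.1% at P3. With the longest transcript, Lama4 and Lama5 held 55.0% and 42.6% in P0 Emcn+, Lama4 54.6% in P0 Emcn-, Lama5 4.24% in lung, and Lama4 and Lama5 82.7% and 7.05% in MSC. With the replicate block, Itga4 was gained at P0 and Itga8 and Itgam between P3 and P1, where the main counts were 0. Itga7 and Lamc1 were lost for MSC against P0 Emcn-, and Itgal, Itgb2, Itgb6 and Lamb3 against passaged cells, where both MSC libraries are of 1 batch. No other call of an integrin or laminin gene named in the text changed with the block, and none of the fold changes recomputed for these genes turned its direction. Genes of the related lists were not recomputed under the alternatives. Where a cause is not given, the cause was not tested. With 2 libraries a condition, a difference that was not called is not shown to be absent.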

Other observations

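A few weakly expressed genes are given here by library. Lamc3, a laminin gamma chain, was at 0.0503 and 0.101 CPM in P0 Emcn- replicates 1 and 2. Passaged cells held 0.178 and 0.179 CPM after 1 passage, 0.438 and 0.563 after 2 and 0.847 and 0.629 after 3, and the P4 library 1.29, levels at which counting error is large. Itgal, the alpha subunit of LFA-1, was at 0.595 and 0.251, 1.23 and 0.398 and 1.21 and 0.296 CPM at P1, P2 and P3, higher in replicate 1 each time. Itgb6, a TGF-beta activating partner of Itgav, was at 0.111 CPM or less in every P0 and lung library, at 1.17 to 2.3 CPM in the passaged libraries and at 5.02 and 5.24 in MSC. Neither Lamc3 nor Itgal was called by edgeR between P3 and P1, and the difference between replicates 1 and 2 was not tested.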
